A study of Mus musculus with 12 samples.

Results

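Etv1, Etv4 and Etv5 are the 3 genes of the PEA3 group of ETS transcription factors. They were selected by name from the transcript table of 12 mice, as every transcript annotated to one of these symbols with repeated transcripts dropped, and they make up 3 of the 35240 gene symbols and 30 of the 112990 transcripts with a gene symbol. The choice was made with the genotype difference of Etv4 and Etv5 known, so their values by genotype are given below as a description without a test. RNA came from full-thickness distal colon, so that epithelium, muscle, nerve and immune cells were read together, and fewer cells of a type cannot be told apart from less RNA per cell. The 6 Spry2IEKO mice carried VillinCre, driven by a 9 kb villin promoter construct active in intestinal epithelium, together with 2 floxed copies of Spry2, which encodes the receptor tyrosine kinase inhibitor Sprouty2. The 6 Spry2FF mice were their littermates with the same floxed alleles and no Cre, and no mouse without floxed alleles or with Cre alone was analysed here. Litter A held 3 mice of each genotype and so did litter B. The Spry2FF mice were 3 males and 3 females, and the Spry2IEKO mice were 1 male and 5 females. The submitters give the age as 6 weeks in one protocol and as 8 weeks in another. Mice are named here by genotype and by the number in their label.

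PEA3 factors bind DNA through the ETS domain and act downstream of receptor tyrosine kinases. ERK signaling raises their transcription and relieves them of the repressor Capicua, while the ubiquitin ligase COP1 marks the proteins for degradation, and all of these factors can in turn activate genes of growth, migration and branching. In gut, Etv4 and Etv5 are known as readouts of ERK activity in epithelium, and Etv1 is best known from interstitial cells of Cajal, the pacemaker cells of the muscle layer, and from neurons.

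The stretch of 75 bases below comes from the exon that encodes the DNA recognition part of the ETS domain. It is shown because, within single exons, it is where Etv4 had the fewest differences from both others together. It lies in exon 12 of 13 of each main coding transcript, at chr11:101770975-101771049 on the minus strand for Etv4, chr16:22386763-22386837 on the minus strand for Etv5 and chr12:38861308-38861382 on the plus strand for Etv1 (GRCm38, GENCODE M21). Capitals mark bases that differ from Etv4.
Etv4-201: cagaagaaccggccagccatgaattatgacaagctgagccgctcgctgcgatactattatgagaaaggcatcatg
Etv5-201: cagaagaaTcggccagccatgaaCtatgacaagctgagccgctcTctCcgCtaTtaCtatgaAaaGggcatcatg
Etv1-201: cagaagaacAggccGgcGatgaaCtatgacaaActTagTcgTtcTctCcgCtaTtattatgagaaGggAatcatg
Here Etv5 differed from Etv4 at 9 of 75 bases, Etv1 from Etv4 at 14 and Etv5 from Etv1 at 11. For single pairs, the most alike 75 bases anywhere in the coding sequences differed at 8, 8 and 10 bases for Etv4 and Etv5, Etv1 and Etv5, and Etv1 and Etv4. Over whole coding sequences, the longest identical run was 23 bases between Etv4 and Etv5, 23 between Etv1 and Etv5 and 18 between Etv1 and Etv4. No 31-base word, the default unit by which kallisto assigns reads, was shared between any 2 of the 3 genes. Of the words of Etv4, 0% occurred in a transcript of another gene. For Etv5, 30.3% occurred in the pseudogene Gm4798, which was listed at 0 in all 12 mice, and for Etv1, 9.97% occurred in transcripts of other genes.

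Etv4 stood at about 12 in Spry2FF mice and about 24 in Spry2IEKO mice, in TPM, the share of transcripts scaled to 1000000, which the authors scaled once more between mice, a unit that is per length and so allows genes to be compared. In Spry2FF mice the lowest, median and highest levels were 9.22, 10.5 and 18.0, and in Spry2IEKO mice 21.0, 24.2 and 26.1. Each of the 6 Spry2IEKO mice lay above each of the 6 Spry2FF mice. The means were 12.1 ± 3.43 (SD, n = 6) and 23.8 ± 1.88 (SD, n = 6), 1.96-fold apart, and the log2 difference was 0.98 with a standard error of 0.146. Among 15879 genes tested, 30 had all Spry2IEKO mice above all Spry2FF mice (0.189%), and by limma 4 were higher in Spry2IEKO mice at an adjusted p under 0.05 (0.0252%) and 1 was lower (0.0063%). Etv4 was among the 30 and among the 4, which is how it came to be chosen. In 2 of 9 other settings and in 8 of 12 fits without 1 mouse no gene was higher at this threshold, Etv4 included. Others at that threshold, named here after their values were seen, included Cma1 and Myo18b among the higher and B4galnt2 as the lower one.

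Etv5 lay lower than Etv4 in all 12 mice and was also higher in Spry2IEKO mice. Its lowest, median and highest levels were 2.57, 3.14 and 5.10 in Spry2FF mice and 4.35, 6.49 and 8.71 in Spry2IEKO mice. The groups overlapped, since Spry2IEKO mouse 8, at 4.35, lay below Spry2FF mice 3 and 10, at 4.81 and 5.10, while the other 5 Spry2IEKO mice exceeded every Spry2FF mouse. The means were 3.59 ± 1.09 (SD, n = 6) and 6.59 ± 1.48 (SD, n = 6), 1.84-fold apart, with a log2 difference of 0.81 and a standard error of 0.191.

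Etv1 had nearly equal means. Its lowest, median and highest levels were 2.99, 3.50 and 4.08 in Spry2FF mice and 2.07, 3.66 and 4.21 in Spry2IEKO mice. The Spry2IEKO values spanned the Spry2FF values, with 2 mice above all of them and 1 below. The means were 3.50 ± 0.388 (SD, n = 6) and 3.45 ± 0.823 (SD, n = 6), and the log2 difference was -0.04 with a standard error of 0.157.

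**Figure D1:**
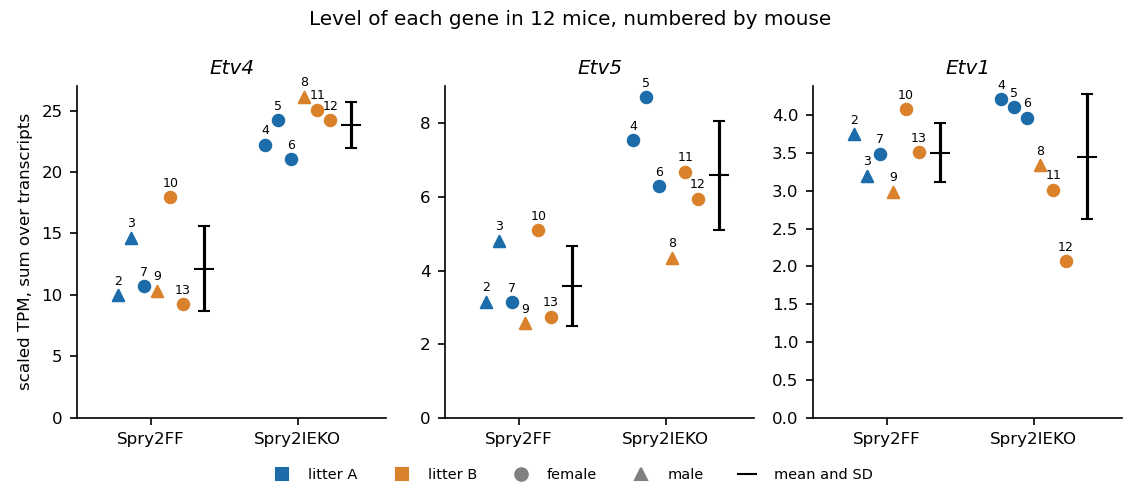
Scaled TPM of Etv4, Etv5 and Etv1 (y axis, linear from 0, 1 scale per gene) in Spry2FF and Spry2IEKO mice, with 1 point per mouse, color for litter, shape for sex and black bars for the mean and SD of 6 mice. The 6 Spry2IEKO points lie between 21.0 and 26.1 for Etv4, above all Spry2FF points, while the groups overlap for Etv5 and Etv1.

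The order of the levels was the same at its top in both genotypes. Etv4 was the highest of the 3 in all 12 mice, at the 59.5th percentile of the mean levels of the genes tested, and Etv5 and Etv1 stood at the 32.9th and 26.9th. Between Etv5 and Etv1 the order depended on the mouse. In Spry2FF mice the ratio of Etv5 to Etv1 ran from 0.783 to 1.5 with Etv5 higher in 2 of 6 mice, so that they did not differ beyond their spread. In Spry2IEKO mice it ran from 1.3 to 2.88 with Etv5 higher in 6 of 6. The ratio of Etv4 to Etv5 was 3.42 ± 0.344 (SD, n = 6) in Spry2FF mice and 3.82 ± 1.18 (SD, n = 6) in Spry2IEKO mice.

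Spread among mice differed between genotypes. For Etv4 the coefficient of variation was 28.2% in Spry2FF mice and 7.88% in Spry2IEKO mice. For Etv5 it was 30.4% and 22.4%, and for Etv1 11.1% and 23.8%. The difference in spread was not tested.

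Spry2 itself was measured as a check of the labels. Its lowest, median and highest levels were 22.8, 28.4 and 32.3 in Spry2FF mice and 18.5, 19.3 and 22.5 in Spry2IEKO mice. All 6 Spry2IEKO mice lay below all Spry2FF mice, which goes with the labels. How many of all genes were separated in this direction was not counted. The ratio of means was 0.723, and the source of the remaining signal was not tested. The tissue also holds cells in which this Cre is not active, while the paper reports low Spry2 expression beneath the epithelium. Which exons are floxed was not used here. By limma the log2 difference was -0.45 (standard error 0.0877, adjusted p = 0.16). Totals of the scaled values ran from 918816 to 1069158 across mice. Y-linked genes went with the sex labels in all 12 mice.

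Whether the levels depended on the litter is a comparison that the choice of genes did not use. The Spry2IEKO mice of litter A were all female. In litter A, Etv4 was 9.96, 14.6 and 10.7 in Spry2FF mice 2, 3 and 7, and 22.2, 24.2 and 21.0 in Spry2IEKO mice 4, 5 and 6. In litter B it was 10.3, 18.0 and 9.22 in Spry2FF mice 9, 10 and 13, and 26.1, 25.1 and 24.2 in Spry2IEKO mice 8, 11 and 12. Since all Spry2IEKO mice lay above all Spry2FF mice, the genotype groups were necessarily separate within each litter too. They were 1.91-fold apart among litter A mice and 2.01-fold apart among those of litter B. Genotype differences within a litter repeat the contrast known when Etv4 and Etv5 were chosen, so they are no independent test.

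The litter A values of Etv5 were 3.15, 4.81 and 3.13 in Spry2FF mice 2, 3 and 7, and 7.54, 8.71 and 6.29 in Spry2IEKO mice 4, 5 and 6. In litter B they were 2.57, 5.10 and 2.75 in Spry2FF mice 9, 10 and 13, and 4.35, 6.69 and 5.96 in Spry2IEKO mice 8, 11 and 12. The genotypes were separate in litter A, 2.03-fold apart, and overlapped in litter B through mice 8 and 10, 1.63-fold apart.

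The litter A values of Etv1 were 3.75, 3.2 and 3.49 in Spry2FF mice 2, 3 and 7, and 4.21, 4.11 and 3.97 in Spry2IEKO mice 4, 5 and 6. In litter B they were 2.99, 4.08 and 3.51 in Spry2FF mice 9, 10 and 13, and 3.34, 3.02 and 2.07 in Spry2IEKO mice 8, 11 and 12. Among Spry2IEKO mice the litters were thus separate, with litter A higher, and among Spry2FF mice they overlapped. Between genotypes the log2 difference came to 0.21 for litter A, against -0.29 for litter B.

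With genotype in the model, the log2 difference of litter B minus litter A was -0.24 for Etv1 (standard error 0.143, adjusted p = 0.347 by limma), 0.10 for Etv4 (standard error 0.147, adjusted p = 0.728) and -0.25 for Etv5 (standard error 0.182, adjusted p = 0.456). None of the 3 passed, against 696 of 15879 genes (4.38%) that differed between litters. The genotype difference in litter B minus that in litter A was -0.50 for Etv1 (standard error 0.259, adjusted p = 0.998 by limma), 0.11 for Etv4 and -0.28 for Etv5, both with an adjusted p of 0.998. Across all genes 2 passed this interaction test (0.0126%). For Etv1, whose sign differed between litters, the difference did not exceed the spread between mice by this test.

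Sex could be compared only with few males. With genotype and litter in the model, males minus females differed by -0.09 for Etv1 (adjusted p = 0.912 by limma), 0.01 for Etv4 (adjusted p = 0.995) and -0.26 for Etv5 (adjusted p = 0.778). None passed, and 16 genes did (0.101%). In females alone, 5 Spry2IEKO against 3 Spry2FF mice, the log2 genotype differences were 0.92 for Etv4, 0.89 for Etv5 and -0.11 for Etv1.

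The values of a gene are sums over annotated transcripts, and the transcripts did not contribute alike. All 30 matched GENCODE M21 by name and version. Etv4 (chr11:101769742-101785371, minus strand) had 12 transcripts, 3 of them coding, and 2 were above 0 in every mouse. Etv5 (chr16:22381309-22439719, minus strand) had 5, of which 3 were listed at 0 in every mouse. Etv1 (chr12:38779380-38870484, plus strand) had 13, of which 7 were above 0 in only 1 or 2 mice and 2 were listed at 0 in every mouse.

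For Etv4 the transcript with the highest level was Etv4-207, a processed transcript without a coding sequence that starts inside an intron. It held 41.4% of the summed TPM, but 22.3% when transcripts were weighted by their length, since it is only 882 bases long. Its first 226 bases lie outside the exons of the coding transcript Etv4-201, and its other 656 bases are shared with them. The stretch below, at chr11:101771881-101772030 on the minus strand of GRCm38, shows the change from intron (lower case) to exon 9 of 13 of Etv4-201 (capitals), the join at which its own bases end.
Etv4-207: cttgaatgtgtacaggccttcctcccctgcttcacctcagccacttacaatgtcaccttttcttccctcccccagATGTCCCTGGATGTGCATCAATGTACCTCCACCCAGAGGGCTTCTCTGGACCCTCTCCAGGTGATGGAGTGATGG
Of the 31-base words of Etv4-207, 73.8% also occur in coding transcripts of Etv4, so its level depended on how shared reads were divided. It was 3.41, 6.22, 3.82, 4.62, 6.61 and 4.23 in Spry2FF mice 2, 3, 7, 9, 10 and 13, and 8.67, 9.17, 7.66, 13.4, 9.84 and 11.7 in Spry2IEKO mice 4, 5, 6, 8, 11 and 12. Its genotype groups did not overlap, and it made up 45.0% of the Etv4 difference. Etv4 was chosen with its genotype difference known, and the share of all transcripts without overlap was not counted.

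The coding transcripts of Etv4 showed a difference of the same size in their sum, though not singly. Etv4-201, with 13 exons and 33.2% of the sum, ranged from 1.61 to 6.79 in Spry2FF mice and from 1.68 to 11.7 in Spry2IEKO mice. Etv4-202, with 17.2% of the sum, was listed at 0 in 2 Spry2FF mice and reached 10.03 in Spry2IEKO mouse 6, which was the lowest Spry2IEKO mouse for Etv4-201. Summed, the coding transcripts reached 6.30 ± 1.55 (SD, n = 6) in Spry2FF mice and 12.3 ± 1.07 (SD, n = 6) in Spry2IEKO mice, 1.95-fold apart with no overlap between 4.42 to 8.61 and 10.4 to 13.3. The transcripts without a coding sequence were 1.98-fold apart. Weighted by length, the whole gene was 1.97-fold apart, an alternative added after the data were seen.

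Etv5 rested on 2 coding transcripts. Etv5-201 held 74.8% of the sum, with 1.03 to 3.80 in Spry2FF mice and 3.40 to 8.02 in Spry2IEKO mice, and it made up 89.8% of the Etv5 difference. Its groups overlapped only through Spry2IEKO mouse 12, at 3.40, and Spry2FF mouse 3, at 3.80. Etv5-203, whose start lies at position 22436514, had means of 1.13 ± 0.996 and 1.43 ± 0.935 (SD, n = 6 each) and overlapped throughout. The promoter window of RefSeq (GRCm38.p6, from 250 bases before a start to 50 after it) that held matches to the Capicua core motif TGAATG on either strand is shown in full, at chr16:22438319-22438618 on the minus strand, since Capicua is the described repressor of these genes. Capitals mark the 3 matches.
Etv5 window: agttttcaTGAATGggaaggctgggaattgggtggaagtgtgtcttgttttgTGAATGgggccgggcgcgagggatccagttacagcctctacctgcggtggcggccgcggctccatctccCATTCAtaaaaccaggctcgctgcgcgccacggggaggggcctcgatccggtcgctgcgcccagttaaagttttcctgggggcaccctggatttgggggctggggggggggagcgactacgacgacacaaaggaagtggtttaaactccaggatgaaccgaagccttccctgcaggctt
None of the octamers TGAATGAA, TGAATGGA, TCAATGAA and TCAATGGA to which Capicua is known to bind lay in this window, in the other window of Etv5 or in the 2 windows of Etv1. TGAATG occurred in 12.7% of all 32851 windows and one of the octamers in 3.84%. No window of Etv4 was at hand. The 50 bases after the start of the window shown occur in no transcript of Etv5 in the table, so that start was not measured here.

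Etv1 rested mainly on Etv1-201, which held 60.4% of the sum. It ranged from 1.44 to 2.55 in Spry2FF mice and from 1.71 to 2.81 in Spry2IEKO mice, with means of 1.90 ± 0.41 and 2.30 ± 0.36 (SD, n = 6 each). Taken alone it gave a log2 difference of 0.23 in place of -0.04 for the sum. Etv1-202, with 22.6% of the sum, was listed at 0 in Spry2FF mouse 13 and in Spry2IEKO mice 11 and 12. These 2 Spry2IEKO mice were also the lowest of their group for the sum. However, every 31-base word of Etv1-202 occurs in other transcripts of Etv1, so its level depended on how reads were divided.

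**Figure D2:**
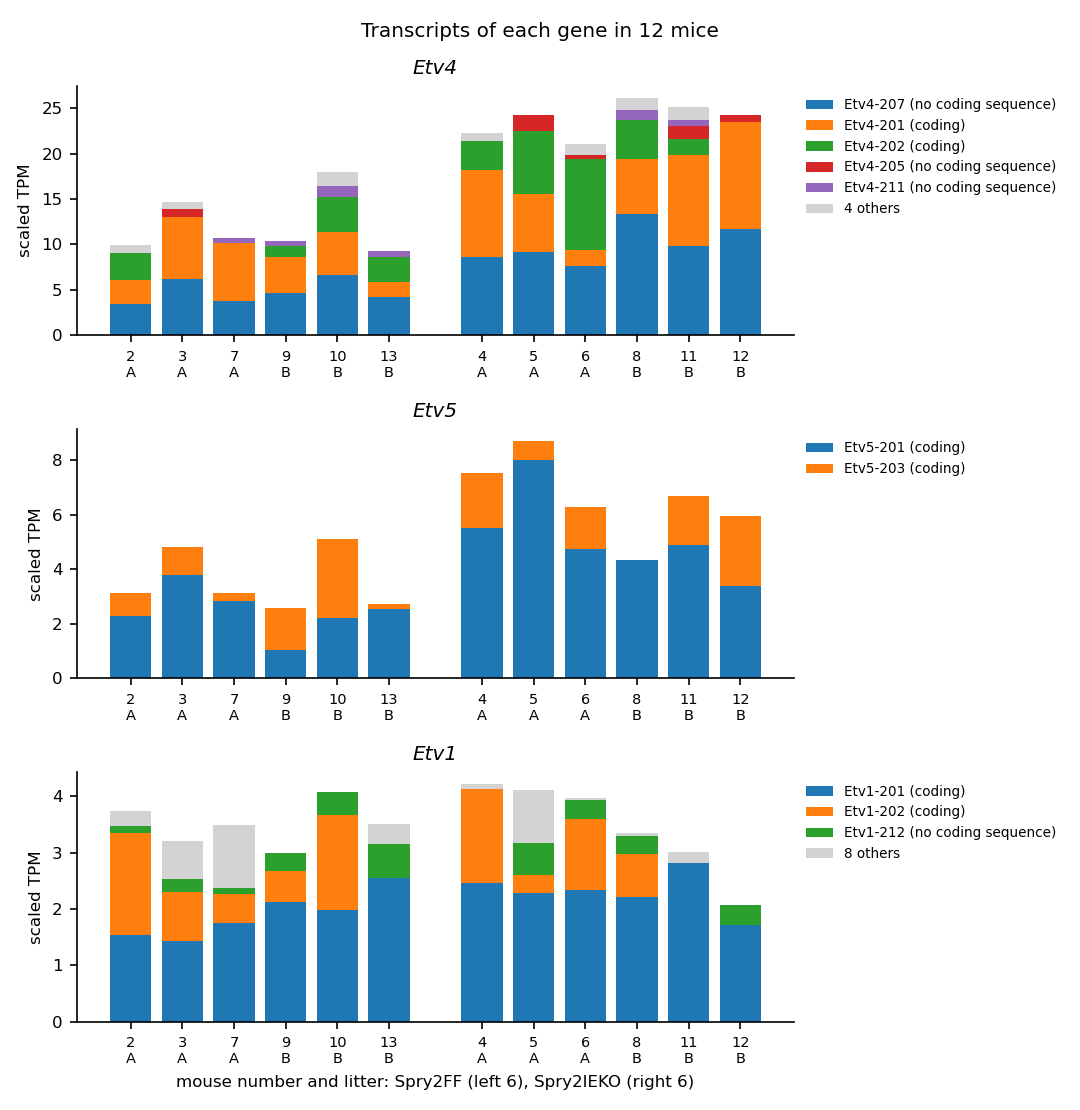
Stacked scaled TPM (y axis, linear from 0) of the transcripts of Etv4, Etv5 and Etv1 in each mouse (x axis, number and litter, Spry2FF left and Spry2IEKO right), with transcripts under 2% of a gene's sum in grey. The Etv4-207 part is higher in each Spry2IEKO mouse than in any Spry2FF mouse, whereas Etv4-201 and Etv4-202 trade places between mice.

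Whether the 3 genes varied together was asked within each genotype, in 6 mice each on the log2 scale. In Spry2FF mice Etv4 and Etv5 had a Pearson r of 0.94 (exact permutation p = 0.0139, 0.0833 after Benjamini-Hochberg adjustment over 6 correlations) and a Spearman rho of 0.71 (exact permutation p = 0.136, adjusted 0.363). Without Spry2FF mice 3 and 10, the 2 with the highest levels of both genes, r was 0.27, so the relation rested on them. The summed level of 5 B cell genes was 124 and 123 in these 2 mice and 1.43 to 8.79 in the other 4 Spry2FF mice, and its part in the relation was not tested. In Spry2IEKO mice r was -0.41 (exact permutation p = 0.417, adjusted 0.44) and rho -0.49 (exact permutation p = 0.356, adjusted 0.427). With litter means removed, r was 0.97 in Spry2FF mice and turned to 0.24 in Spry2IEKO mice. The difference between the genotypes was not tested.

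Etv1 and Etv5 had an r of 0.44 in Spry2FF mice (exact permutation p = 0.382, adjusted 0.44) and of 0.41 in Spry2IEKO mice (exact permutation p = 0.396, adjusted 0.44), with rho of 0.60 (p = 0.242, adjusted 0.363, exact permutation) and 0.66 (p = 0.175, adjusted 0.363, exact permutation). Without the 2 mice farthest from the median of Etv1, r was -0.78 and 0.93. Etv1 and Etv4 had an r of 0.38 (exact permutation p = 0.44, adjusted 0.44) and of -0.45 (exact permutation p = 0.385, adjusted 0.44), with rho of 0.086 (p = 0.919, adjusted 0.919, exact permutation) and -0.60 (p = 0.242, adjusted 0.363, exact permutation), and without 2 mice r was -0.83 and -0.70. With litter means removed, the Spry2IEKO values turned to -0.31 for Etv1 and Etv5 and to 0.49 for Etv1 and Etv4. No pair passed the adjusted threshold in either genotype. Each litter held 3 mice of a genotype, too few for an r of its own.

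**Figure D3:**
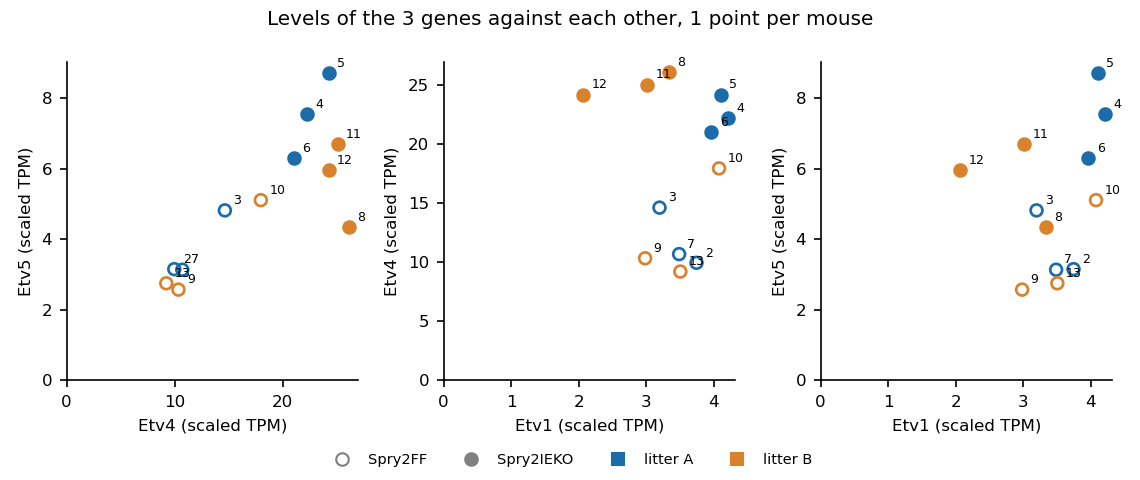
Scaled TPM of each pair of genes (both axes linear from 0), with 1 point per mouse, open for Spry2FF, filled for Spry2IEKO and colored by litter. Spry2FF mice 3 and 10 stand above the other 4 for both Etv4 and Etv5, and the 3 Spry2IEKO mice of litter B stand to the left of those of litter A for Etv1.

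The genes most like each member were sought over all 12 mice with the genotype means removed, among 14380 genes with a mean of at least 1, as a description without a test. For Etv1 these were Sfrp5 (r = 0.96), Stmn2 (r = 0.94), which encodes a microtubule regulator of neurons, Tmub1 (r = 0.93), Cadm1 (r = 0.93), a cell adhesion molecule, and Jdp2 (r = 0.92). For Etv5 they were Xlr4a (r = 0.94), the immunoglobulin segment Igkv6-20 (r = 0.93), Rgs19 (r = 0.90), Xlr4b (r = 0.90) and Ltbp2 (r = 0.90). For Etv4 they were Gm13002 (r = 0.86), the DNA repair gene Ercc4 (r = 0.83), Tyw3 (r = 0.83), Mdn1 (r = 0.83) and Cep63 (r = 0.80). Between members, r was 0.61 for Etv4 and Etv5, 0.38 for Etv1 and Etv5 and 0.02 for Etv1 and Etv4. By this measure Etv5 stood at rank 116 of 14380 among the genes like Etv4, and Etv4 at rank 1022 among those like Etv5. The points share their libraries.

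The other 23 ETS genes served as the comparison within the family. Etv2 was listed at 0 in every mouse, and 21 were tested. At an adjusted p under 0.05 by limma 0 changed, and 3 of 21 had an unadjusted p under 0.05, as did 981 of all 15879 genes (6.18%). The log2 genotype difference was above 0 for 11 and below 0 for 10, with a median of 0.01, as for all genes tested (0.01). Ets2, an ERK target in its own right, had lowest, median and highest levels of 82.0, 88.2 and 104 in Spry2FF mice and 73.2, 79.5 and 86.7 in Spry2IEKO mice (log2 difference -0.18, adjusted p = 0.753 by limma). Elf3, an epithelial ETS factor, was 312, 394 and 432 against 282, 329 and 353 (log2 difference -0.22, adjusted p = 0.753 by limma). Spdef, which drives goblet cell maturation and is named here after its value was seen, was 19.98, 23.3 and 30.9 against 21.8, 34.5 and 37.1 (log2 difference 0.37, adjusted p = 0.753 by limma).

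Upstream of the PEA3 factors, 15 of 16 receptors and ligands were tested. At an adjusted p under 0.05 by limma 0 changed with genotype, and 0 had an unadjusted p under 0.05. The difference was above 0 for 9 and below 0 for 6, with a median of 0.02. The receptor Kit was 12.8, 15.8 and 21.0 (lowest, median and highest) in Spry2FF mice and 15.4, 21.4 and 24.2 in Spry2IEKO mice (log2 difference 0.29, adjusted p = 0.826 by limma). The ligand Fgf10 was 0.483, 1.16 and 1.53 against 1.02, 1.45 and 3.62 (log2 difference 0.44, adjusted p = 0.837 by limma). Without Spry2IEKO mouse 5 the difference of Fgf10 was 0.25. Between litters, Egfr and Met, the receptors of EGF and HGF, were lower in litter B by limma (log2 difference -0.52, adjusted p = 0.0112, and -0.44, adjusted p = 0.0155).

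Of the genes of repression and protein turnover, all 7 were tested, by limma 0 changed at an adjusted p under 0.05 and 0 had an unadjusted p under 0.05, and the median log2 difference was -0.04. Cop1, the ubiquitin ligase, was 149, 154 and 183 (lowest, median and highest) in Spry2FF mice and 153, 179 and 195 in Spry2IEKO mice (log2 difference 0.15, adjusted p = 0.826 by limma). Cic, which encodes Capicua, was 25.3, 31.6 and 37.5 against 23.4, 29.8 and 33.5 (log2 difference -0.11, adjusted p = 0.908 by limma). Ddb1, of the ligase's scaffold, was lower in litter B (log2 difference -0.28, adjusted p = 0.0144 by limma). These are RNA levels, and neither the activity of Capicua nor the amount of any protein was measured.

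Beside the PEA3 factors, 16 other genes that ERK signaling is known to raise were examined. At an adjusted p under 0.05 by limma 0 changed, and 1 of 16 had an unadjusted p under 0.05, a share near that over all genes (6.18%). The difference was above 0 for 10 and below 0 for 6, with a median of 0.14. Dusp6, the phosphatase that switches ERK off, was 21.0, 25.3 and 32.1 (lowest, median and highest) in Spry2FF mice and 29.4, 36.04 and 42.0 in Spry2IEKO mice (log2 difference 0.48, standard error 0.104, adjusted p = 0.25 by limma). Epha2, a receptor of ephrins, was 4.69, 6.16 and 8.23 against 2.63, 4.57 and 6.90 (log2 difference -0.41, standard error 0.195, adjusted p = 0.826 by limma). Over the 16 genes the log2 difference ran from -0.41 for Epha2 to 0.56 for Dusp4. This list was written with the values of Dusp6 known.

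Of 6 genes described as targets of PEA3 factors, 5 were tested, by limma 0 changed at an adjusted p under 0.05 and 0 had an unadjusted p under 0.05, and the median log2 difference was 0.03. The chemokine receptor Cxcr4 was 0.912, 2.18 and 10.5 (lowest, median and highest) in Spry2FF mice and 1.42, 5.53 and 25.5 in Spry2IEKO mice (log2 difference 0.73, adjusted p = 0.899 by limma). Without Spry2IEKO mouse 4 its difference was 0.30. Ptgs2, the inducible cyclooxygenase, was 0.777, 0.990 and 1.41 against 0.737, 1.27 and 1.58 (log2 difference 0.15, adjusted p = 0.919 by limma). The protease Mmp7 was listed at 0 in all 6 Spry2FF mice and reached 0.502 in Spry2IEKO mice, too low to be tested.

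**Figure D4:**
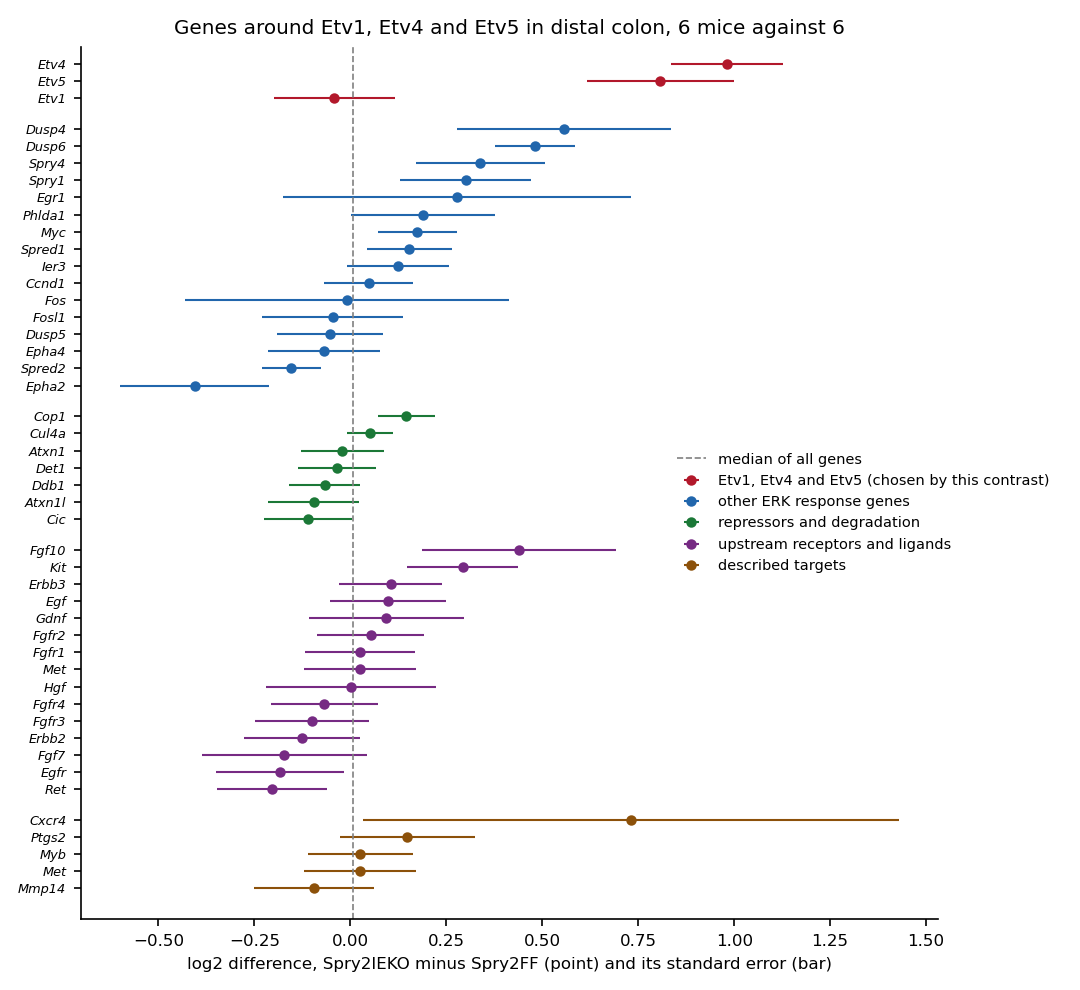
Log2 difference of Spry2IEKO minus Spry2FF mice (x axis, point, with its standard error as a bar) for the tested genes of 5 lists (y axis, 1 gene per line, color for list), with the median of all genes as a dashed line. Etv4 and Etv5, which were chosen by this contrast, lie at 0.98 and 0.81, and the other ERK response genes lie between -0.41 (Epha2) and 0.56 (Dusp4).

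Markers of the cells in the tissue were read in the same mice. The epithelial genes Epcam, Krt8 and Vil1 were abundant in every mouse, and so were the muscle genes Acta2 and Myh11, as the tissue label says. Of 5 goblet cell genes, all 5 had a log2 difference above 0 (median 0.53) and 4 had an unadjusted p under 0.05 by limma, while 0 passed after adjustment, beside 6.18% of all genes with such an unadjusted p. Their sum ran from 5773 to 9522 in Spry2FF mice and from 7383 to 14191 in Spry2IEKO mice, 5 of which lay above all Spry2FF mice. The sum of 6 tuft cell genes ran from 6.29 to 10.97 and from 7.45 to 16.7, again with 5 of 6 above, and 4 of the genes could be tested and 0 passed (1 with an unadjusted p under 0.05). Of the 5 mast cell genes only Cma1 was tested and rose (log2 difference 1.90, adjusted p = 0.035 by limma), while the defining genes Cpa3, Mcpt4, Tpsb2 and Ms4a2 stayed at or near 0 (at most 0.495). With litter and sex in the model the adjusted p of Cma1 was 0.0656 by limma, and it passed in 2 of 12 fits that left out 1 mouse. The sum of 7 epithelial genes ran from 4404 to 5198 in Spry2FF mice and from 3653 to 4498 in Spry2IEKO mice, with 5 of 7 log2 differences below 0, 4 of 7 with an unadjusted p under 0.05 (6.18% of all genes) and 0 past the adjusted threshold by limma. The part of goblet, tuft and mast cell genes in the genotype values of Etv4 and Etv5 was not tested.

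The sums of the other lists overlapped between the genotypes. Those of 5 interstitial cell of Cajal genes ran from 345 to 533 in Spry2FF mice and from 312 to 472 in Spry2IEKO mice, and those of 7 enteric neuron genes from 48.6 to 77.6 and from 36.4 to 74.0. Crypt base genes ran from 73.7 to 107 and from 74.1 to 89.2, proliferation genes from 171 to 241 and from 176 to 237, and smooth muscle genes from 4167 to 6923 and from 3226 to 7887. Fat cell genes, from 27.0 to 116 and from 22.8 to 1053, and B cell genes, from 1.43 to 124 and from 4.51 to 311, varied widely between mice. In each of these 7 lists 0 genes passed at an adjusted p under 0.05 by limma, and of the genes with the smallest p only Rnf43, a crypt base gene, had an unadjusted p under 0.05.

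With the genotype means removed, Etv1 went most closely with the enteric neuron genes (r = 0.91 with their sum over 12 mice, the highest of 11 marker lists), then with fat cell genes (r = 0.71) and interstitial cell of Cajal genes (r = 0.57). In Spry2IEKO mice the neuron sum was 69.5 to 74.0 in litter A and 36.4 to 61.1 in litter B, separate like the Etv1 values, and mouse 12 was lowest for both. For Etv5 the highest r was 0.79, with the mast cell sum, which is mostly Cma1, followed by 0.71 with tuft and 0.70 with goblet cell genes. For Etv4 it was 0.56, with B cell genes. The lowest r was -0.62 for Etv5 and -0.30 for Etv1, both with the epithelial genes, and -0.46 for Etv4, with crypt base genes. Etv4 had an r of -0.15 with the epithelial genes. These are descriptions in 12 mice that share their libraries, and the part of cell composition in the levels was not tested.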

How the data were processed

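The members, gene lists and comparisons were chosen with earlier results of these data known. RNA of full-thickness distal colon was sequenced from 12 mice. Per the labels, kallisto and sleuth were used with mm10. The paper's methods name single-end reads of 75 bases, the labels paired-end reads. The authors deposited a signal per transcript, TPM scaled once more between mice, as their totals differ. Read depth is not part of it, and a 0 means only listed at 0. Columns of the authors' own comparison (p, q and variance) were not used.

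Repeated entries (781 of 113974) were dropped and values summed per gene symbol. The 15879 genes averaging 0.5 or more were compared on log2(signal + 0.5) with limma 3.58.1 in R 4.3.3 (trend, two-sided, Benjamini-Hochberg), checked on simulated data. The tests had been planned for plain TPM and were kept. Correlations used exact two-sided permutation. Each mouse gave 1 library, and p-values measure only the spread between these samples. Of each pathway list, genes past the genotype threshold, or else the 2 with the smallest p, were named. Sequences came from GENCODE M21 and RefSeq (Python 3.11.15, SciPy 1.17.1). Of the 5 genes past the genotype threshold, 1 is not reported here.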

Additional observations from a re-analysis of the deposited data

Results flagged for a closer look

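The 82 groups of 6 mice examined covered the members, their main transcripts, Spry2 and genes named from the lists. Of these groups, 8 held 1 mouse far from the other 5, where chance gives about 1 in 20. None of the 8 was a value of Etv1, Etv4 or Etv5. Of these, 3 were of Spry2IEKO mouse 4, in which the B cell gene Cd79b was 95.0 (others at most 31.3), Cxcr4 was 25.5 (others at most 10.1) and the crypt gene Rnf43 was 12.7 (others at least 17.2). Cxcr4 is also abundant in lymphocytes, and the part of these cells in its value was not tested. Fgf10 was 3.62 in Spry2IEKO mouse 5 (others at most 1.73), Myh11 was 772 in Spry2IEKO mouse 8 (others at most 438) and Ascl2 was 10.4 in Spry2IEKO mouse 12 (others at most 5.41). In Spry2FF mice, Adipoq was 6.44 in mouse 2 (others at most 1.95) and Cma1 was 9.06 in mouse 10 (others at most 5.17). Mouse 10 was also the highest Spry2FF mouse for Etv4 and Etv5. Myo18b was not among the groups examined, and it was 5.12 in Spry2IEKO mouse 8 (other Spry2IEKO mice at most 2.69).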

How the results depend on the processing

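The genotype differences of Etv4 and Etv5 kept their sign under every alternative tried. Both genes were chosen with this difference known, so the kept sign is no independent test. For Etv4 the groups did not overlap, so leaving out a mouse could not turn the sign. Leaving out 1 mouse, the differences of Etv4 and Etv5 ran from 0.91 to 1.10 and from 0.73 to 0.91 on the log2 scale. That of Etv1 ran from -0.10 to 0.08. That of Etv1 was 0.23 for Etv1-201 alone and, in alternatives added after the data were seen, -0.08 for coding transcripts and 0.09 with transcripts weighted by length. No paired analysis was possible because the genotypes share no mouse numbers, so litter was used as a covariate instead. Genes called by genotype numbered 5 (4 higher), with 981 unadjusted p under 0.05, and 6 (5 higher) with litter as covariate, with 1302, but 1 (0 higher) without a filter on low values, 1 (0 higher) with litter and sex as covariates, 2 (1 higher) after quantile normalization and 2 (1 higher) in females only. Where no gene was higher, Etv4 was not among the calls either. Leaving out 1 mouse gave 1 to 11, with 1 without Spry2FF mouse 2, 3, 9 or 13 or Spry2IEKO mouse 4, 5, 6 or 11, and 11 without Spry2IEKO mouse 8. Genes called by litter numbered 696 (171 higher in litter B), but 422 without a filter, 1456 (105 higher) with each mouse rescaled to 1000000, 477 (209 higher) after quantile normalization and 180 to 957 without 1 mouse (lowest without Spry2IEKO mouse 5, highest without Spry2IEKO mouse 8). Rescaling moved the median of all genes between litters from -0.05 to -0.12. Sex gave 10 to 20 without 1 mouse and the interaction 2 to 5. The interaction gave 0 by limma with a mean of at least 2 (529 with an unadjusted p under 0.05). The cause was not tested. The contrasts of litter, sex and interaction passed for no member under any alternative. For Etv4 the sign turned without 1 mouse, from -0.017 to 0.19 by litter, from -0.12 to 0.19 by sex and from -0.066 to 0.40 for the interaction, and for Etv5 the interaction ran from -0.46 to 0.00089. With litter means removed, r in Spry2IEKO mice turned to 0.24 for Etv4 and Etv5, 0.49 for Etv1 and Etv4 and -0.31 for Etv1 and Etv5. Without 1 mouse, r ran in Spry2FF mice from 0.92 to 0.98 for Etv4 and Etv5, from -0.41 to 0.63 for Etv1 and Etv4 and from -0.049 to 0.84 for Etv1 and Etv5. In Spry2IEKO mice it ran from -0.67 to 0.14, from -0.69 to -0.33 and from 0.25 to 0.68. With litter and sex as covariates the genotype differences of Myh11 and Acta2 turned to 0.039 and 0.048, and that of Ccnb1 ran from -0.011 to 0.093 without 1 mouse. Depth is unknown, and the division of reads among overlapping transcripts limits the values of single transcripts.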
